A study of Homo sapiens with 21 samples.

Results

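U-87MG is an established human glioblastoma cell line, and PK19 is one clone of it that stably expresses parkin. PK19 was compared here with V22, one clone that stably carries the vector alone. The comparison used 6 of the 21 arrays of the study, the PK19 arrays titled sets 1 to 3 and the V22 arrays titled sets 4 to 6. Both groups belong to the second of 2 array series, as the prefixes of the scanner file names were read here. The other arrays of that series are 3 each of the parkin clones PK7 and PK25, and the first series holds 3 arrays each of the vector clones V8, V17 and V22. All clones were plated alike and grown for 24 h, and no further treatment is named in the labels. Each group is 1 clone, and the labels do not say whether its arrays came from separate cultures. The p-values below therefore measure only the spread between arrays of a clone, which may be technical, and an effect of parkin cannot be told apart from other differences between 2 clones. Gene levels are log2 values of RMA intensity, 1 unit being a 2-fold difference, for the 18374 genes whose probe set names 1 gene. Each gene is represented by the probe set with the highest mean over the 21 arrays.

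Parkin is an E3 ubiquitin ligase of the cytosol. The kinase PINK1 collects on mitochondria that have lost their membrane potential and activates parkin, which tags outer membrane proteins with ubiquitin, and the tagged mitochondria are taken up by autophagosomes and broken down in lysosomes. The parkin gene is often deleted or silenced in glioma, and clones with and without an introduced copy ask which transcripts differ in its presence.

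The 12 arrays of the second series were fitted together with limma, and a gene was called at a Benjamini-Hochberg adjusted p under 0.05 and a difference of at least 2-fold. Array medians lay between 6.21 and 6.37 log2 units over the 21 arrays. Pairs of PK19 arrays correlated at 0.9917 to 0.9959 and pairs of V22 arrays at 0.9935 to 0.9969 across probe sets. The number of arrays limits the precision, and the median SE of a difference between PK19 and V22 was 0.13 log2 units. Without parkin, V22 of the second series differed from V22 of the first in 1 called gene (0.00544%), V17 differed from V22 in 0 genes (0%) by limma, and V8 differed from V22 in 221 genes (1.2%). At an unadjusted p under 0.05 the first 2 of these comparisons held 1453 and 366 genes. Parkin's own transcript was not analysed here.

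PK19 differed from V22 in 636 called genes, 3.46% of those tested. Of these, 337 were higher in PK19 (1.83%) and 299 were lower (1.63%). Without the size limit, 2767 genes passed (15.1%), with 1292 higher (7.03%) and 1475 lower (8.03%). The median difference over all genes was 0.002 log2 units. Differences of at least 4-fold were called for 127 genes, and differences of at least 8-fold for 29 genes higher and 10 genes lower in PK19. The arrays of both clones did not overlap for 6615 genes (36%), and for each of the 636 called genes. For 2826 genes (15.4%) all 3 PK19 arrays lay outside the range of all 12 vector arrays of both series, and this held for 538 of the 636 called genes. Genes called higher were mostly dim in V22, with 230 of 337 below the median gene, and genes called lower were mostly bright there, with 53 of 299 below it. A choice by difference from V22 favours both patterns.

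**Figure D1:**
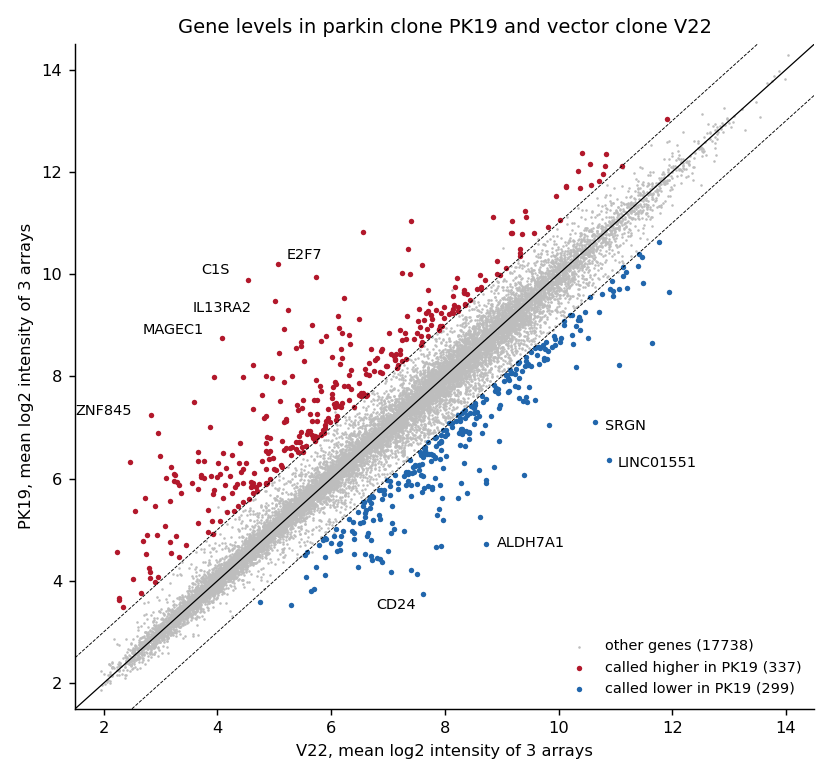
Mean log2 intensity of 3 V22 arrays (horizontal axis) against that of 3 PK19 arrays (vertical axis), 1 point per gene, with the line of equality and dashed lines at 2-fold. Red points are the 337 genes called higher in PK19, blue points the 299 called lower. C1S, E2F7 and MAGEC1 stand at V22 levels below 5.1 and PK19 levels above 8.7, whereas LINC01551, ALDH7A1 and CD24 stand on the opposite side.

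A complement protease, a transcription factor of the cell cycle and a cancer-testis antigen were the 3 genes furthest above V22 among those named. C1S, a serine protease of the first complement component, was at 9.89, 10.02 and 9.77 on the PK19 arrays and 4.65, 4.52 and 4.45 on the V22 arrays. The arrays were apart by a wide margin, and the difference was 5.35 log2 units or 40.8-fold (SE 0.21, limma adjusted p = 5.5e-09). C1S stood at 9.79 in PK7 (adjusted p = 0.87 against PK19), 5.26 in PK25 and 7.61 in V8. E2F7, a repressor of the E2F family, was at 10.09, 10.2 and 10.28 in PK19 and 5.07, 5.04 and 5.08 in V22. Its difference was 5.13 log2 units or 34.9-fold (SE 0.11, adjusted p = 8.2e-12), and no array of another clone came near PK19, with a mean of 5.18 in PK7, 5.2 in PK25 and 5.29 in V8. MAGEC1, a cancer-testis gene of the X chromosome, was at 8.44, 8.87 and 8.96 against 4.04, 4.09 and 4.14 (difference 4.67, SE 0.21, adjusted p = 2e-08). MAGEA1 (2.78) and SSX1 (2.65), cancer-testis genes on X as well, were also called. These were the 3 members called of the 21 measured genes of the cancer-testis list, whose median was 0.06.

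Of the 15 largest rises, 12 lay above all 12 vector arrays. The exceptions were IL13RA2, C3 and IL1B. IL13RA2, a receptor for interleukin 13 that is common in glioblastoma, was at 9.43, 9.38 and 9.61 in PK19 and 5.1, 5.11 and 4.85 in V22, a difference of 4.46 (SE 0.13, adjusted p = 3.6e-10). V22 and V17 (5.24) were the low clones for this gene, since V8 was at 11.07, PK7 at 10.61 and PK25 at 10.29, all above PK19. MMP3, a matrix metalloproteinase, was at 10.84, 10.67 and 10.98 in PK19 and at 7.04, 5.66 and 7.01 in V22 (difference 4.26, SE 0.43, adjusted p = 2.3e-05). The V22 arrays of MMP3 spread over more than 1 unit, and V8 stood at 9.31. SERPINB7, a serine protease inhibitor, differed by 4.2 log2 units (SE 0.21) and PNLIPRP3, a gene of the pancreatic lipase family, by 4.05 (SE 0.19). MRS2, the magnesium channel of the inner mitochondrial membrane, was at 8.1, 7.78 and 8.09 in PK19 and 3.69, 3.92 and 4.25 in V22 (difference 4.04, SE 0.15, adjusted p = 4e-09). The means of PK7, PK25 and V8 for MRS2 were 3.91, 3.98 and 3.85, all in the V22 range. NAP1L3, a nucleosome assembly gene on X, was higher by 3.90 in PK19 and stood at 7.72 in PK7. The remaining large rises were those of PARP8 (3.61), a member of the poly(ADP-ribose) polymerase family, PNMA2 (3.53), a paraneoplastic antigen, and PCDHB2 (3.37), a clustered protocadherin.

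The 15 largest falls all lay below the 12 vector arrays. LINC01551, a long non-coding RNA gene on chromosome 14, was at 6.45, 6.07 and 6.55 in PK19 and 10.92, 10.86 and 10.86 in V22. The difference was -4.53 log2 units (SE 0.26, adjusted p = 1.7e-07). ALDH7A1, an aldehyde dehydrogenase of lysine breakdown, was at 4.31, 5.49 and 4.4 against 8.72, 8.8 and 8.65. Set 2 was the highest PK19 array, and the difference was -3.99 or 15.9-fold lower (SE 0.30, adjusted p = 1.8e-06). PK7 (8.3), PK25 (8.55) and V8 (8.74) held the level of V22. CD24, a glycosylated surface protein of progenitor and tumour cells, was at 3.71, 4.11 and 3.38 in PK19 and 7.37, 7.94 and 7.55 in V22 (difference -3.88, SE 0.45, adjusted p = 7.7e-05). V8 was lower than V22 for this gene as well, at 5.08. SRGN, the core protein of a secretory proteoglycan, fell by 3.55 (SE 0.096, adjusted p = 1.3e-10) and HMGN3, a nucleosome-binding protein, by 3.39 (SE 0.21). SLFN11, a helicase-like factor that acts on stalled replication forks, was at 4.51, 4.59 and 4.98 against 7.91, 7.99 and 7.9 (difference -3.24, SE 0.18, adjusted p = 1.7e-07). HSD17B2, a steroid dehydrogenase, fell by 3.37 (SE 0.16) and the difference of LRRTM4, a synaptic adhesion protein, was -3.3 (SE 0.22), and PK7 was near PK19 for both, at 5.23 and 6.19. The other members were LRRC17 (-3.18), GALNT5 (-3.17), an enzyme of mucin-type glycosylation, LOC151760 (-2.99), ITGA6 (-2.89), the laminin-binding integrin alpha 6, ACTA2 (-2.85), TMEM255A (-2.82) and SP140 (-2.79), a nuclear body protein.

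**Figure D2:**
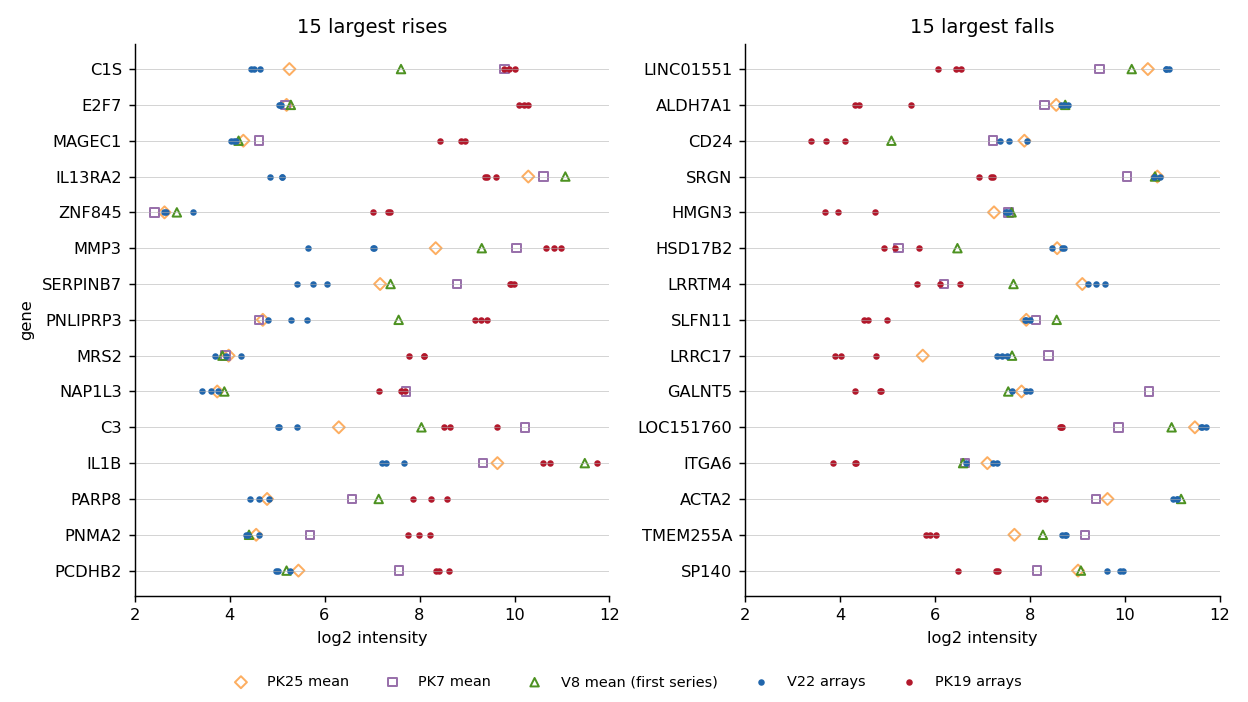
Log2 intensity (horizontal axis) of the 15 largest rises (left) and falls (right) in PK19 against V22, with 3 red points for the PK19 arrays, 3 blue points for the V22 arrays and open symbols for the means of PK7, PK25 and V8. The red and blue points are apart for every gene shown, which was a condition of the choice. For E2F7, ZNF845, MRS2 and HMGN3 the other 3 clones lie near V22 and far from PK19.

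The promoters of E2F7, ZNF845 and ALDH7A1 are shown because these genes were among the leading ones called in the same direction against V22, PK7 and PK25. Each runs from 250 bases before to 50 bases after the start of the gene in RefSeq, build GRCh38.p14, read 5' to 3' on the strand of the gene. Capitals mark CG, the dinucleotide at which human DNA is methylated, which is its own reverse complement. Methylation was not measured in these arrays. The E2F7 promoter (chr12:77065520-77065819, minus strand) held 35 CG, the ZNF845 promoter (chr19:53333499-53333798, plus strand) held 28 and the ALDH7A1 promoter (chr5:126595170-126595469, minus strand) held 17. The CD24 promoter, chosen by the same rule, held 25 and is not printed.
E2F7: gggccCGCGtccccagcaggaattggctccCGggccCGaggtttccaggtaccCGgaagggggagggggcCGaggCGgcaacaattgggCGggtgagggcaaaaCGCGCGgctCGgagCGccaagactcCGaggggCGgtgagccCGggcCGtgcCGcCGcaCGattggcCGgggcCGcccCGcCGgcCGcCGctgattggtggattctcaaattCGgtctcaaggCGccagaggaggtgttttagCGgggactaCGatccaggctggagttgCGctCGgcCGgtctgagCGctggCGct
ZNF845: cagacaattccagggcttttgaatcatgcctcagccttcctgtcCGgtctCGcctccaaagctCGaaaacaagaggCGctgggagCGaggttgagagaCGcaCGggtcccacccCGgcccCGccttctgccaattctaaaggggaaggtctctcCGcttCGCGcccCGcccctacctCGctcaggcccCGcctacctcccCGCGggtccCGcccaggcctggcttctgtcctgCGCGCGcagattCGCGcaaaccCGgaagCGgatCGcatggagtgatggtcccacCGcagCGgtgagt
ALDH7A1: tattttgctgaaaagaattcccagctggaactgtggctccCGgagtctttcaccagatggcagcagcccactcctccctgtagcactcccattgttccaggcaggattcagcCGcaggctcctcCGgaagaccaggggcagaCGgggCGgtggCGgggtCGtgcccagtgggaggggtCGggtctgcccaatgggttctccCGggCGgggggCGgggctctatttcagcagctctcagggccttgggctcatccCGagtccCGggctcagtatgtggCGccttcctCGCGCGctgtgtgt

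Across the promoter table, 27305 promoters of 300 bases held a median of 14 CG, and the 14208 matched to measured genes held a median of 23. For genes called higher the median was 19 over 251 matched promoters, for genes called lower 24 over 241. The 22 matched genes that were at least 8-fold higher had a median of 14, with a range of 2 to 35. These counts describe letters in a window and carry no test.

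Zinc finger genes of chromosome 19 were frequent among the genes higher in PK19. Of 493 genes with a ZNF symbol, 45 were called higher (9.13%) and 5 lower, against 1.83% and 1.63% of all genes. The family was looked at after the largest differences had been seen. On chromosome 19, 38 of 237 ZNF genes were called higher (16%) and 1 lower, and of the 1069 other genes of that chromosome 5 were higher and 5 lower. PK7 had 6 ZNF genes higher than V22 and PK25 had 0, and V8 had 4 higher and 4 lower in its own series. Against all of V22, PK7 and PK25, 36 ZNF genes were higher in PK19 and 1 was lower, 33 of the former on chromosome 19. Most of these genes encode KRAB zinc finger repressors that stand in clusters. In V22, 42 of the 45 were below the median gene. That share was not counted for all 493, and choosing genes higher than V22 favours low V22 levels. ZNF845 was at 7.02, 7.38 and 7.34 in PK19 and 3.23, 2.66 and 2.62 in V22 (difference 4.41, SE 0.18, adjusted p = 9.7e-09). ZNF737 differed by 3.93 (SE 0.27), ZNF799 by 3.14 (SE 0.15), ZNF566 by 2.93 (SE 0.13) and ZNF253 by 2.89 (SE 0.14). On chromosome 7, ZNF680 differed by 3.85 (SE 0.16) and ZNF273 by 3.04 (SE 0.14). ZNF32 on chromosome 10, the largest fall, differed by -1.59 (SE 0.16, adjusted p = 2.2e-05). These paralogs resemble each other in sequence, so probes of one may also bind the transcript of another.

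The protocadherin beta genes of chromosome 5, cell surface proteins that neurons use to recognise each other, gave 10 of 18 members higher in PK19 and 0 lower, with a median of 1.16. This family was likewise chosen after its values were seen. PCDHB2 was at 8.62, 8.34 and 8.41 in PK19 and 4.98, 5.27 and 5.02 in V22. Its difference was 3.37 (SE 0.25, adjusted p = 1.8e-06), and PK7 was also high, at 7.57. PCDHB6 was at 7.88, 7.64 and 8.16 against 4.9, 5.31 and 5.31 (difference 2.72, SE 0.28, adjusted p = 3.2e-05), and stood at 5.0 in PK7. PCDHB6, PCDHB4 (2.13) and PCDHB15 (1.80) were the 3 members higher than V22, PK7 and PK25 alike. PK7 had 4 of the 18 called higher than V22 and PK25 had 0.

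Neighbouring genes shifted together along parts of several chromosomes. The 8717 placed genes with a mean above 7 were divided into 172 runs of about 50 neighbours, and the median difference of a run was 0.3 log2 units or more from 0 in 20 runs, 14 of them lower and 6 higher. These 20 runs held 990 genes, 11.4% of those placed in runs, and 11.2% of their genes were called, against 2.9% in the other 152 runs. The runs were chosen by the same differences, so a higher share of called genes in them is partly built in. On chromosome 14 the whole set of 6 runs was lower, most of all HEATR5A to GNPNAT1, with a median of -0.85 and 47 of 49 genes below V22, and CCNB1IP1 to STRN3, with -0.67 and 48 of 50. On chromosome 6 the first 5 runs were lower, from -0.81 for EXOC2 to CARMIL1 and -0.79 for PHF1 to RPL7L1 to -0.45 for TRIM38 to MDC1. On chromosome 1, PRRC2C to UCHL5 stood at -0.67, with 50 of 50 genes below V22. The highest run was TPGS2 to ADNP2 on chromosome 18, at 0.68 with 58 of 60 genes above V22 and 12 called. Of 7 runs of chromosome 10, 4 were higher, at 0.32 to 0.39. IQSEC3 to NECAP1 on chromosome 12 stood at 0.31. The last run of chromosome 19, HSPBP1 to CENPBD2P, was lower, at -0.32 with 46 of 49 genes below V22. B4GAT1 to NADSYN1 on chromosome 11 stood at -0.33.

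The same runs differed in whether other clones shared them. For TPGS2 to ADNP2 the median of PK7 minus V22 was 0.01 and that of PK25 -0.02, and for PRRC2C to UCHL5 these were -0.12 and -0.06. The 5 chromosome 6 runs were also low in PK7 (EXOC2 to CARMIL1 at -0.60) and in V8 of the first series (-0.44). PK25 was near V22 there (-0.03), except for TRIM38 to MDC1, at -0.21, a run in which V22 itself differed by -0.21 between series. On chromosome 14 both other parkin clones were lower than V22 as well, though less than PK19, with HEATR5A to GNPNAT1 at -0.30 in PK7 and -0.31 in PK25 and PK19 at -0.52 against PK7 and -0.51 against PK25. IQSEC3 to NECAP1 was high in PK7 (0.35), PK25 (0.30) and V8 (0.54). HSPBP1 to CENPBD2P was low in PK7 (-0.59) and V8 (-0.34) and near V22 in PK25 (0.03). V22 itself differed between series by -0.06 for PRRC2C to UCHL5 and 0.03 for TPGS2 to ADNP2. DNA copy number was not measured, and its part in these shifts was not tested. Without the genes of any level that lie between the ends of the 20 runs, 284 genes were called higher and 206 lower. Counts outside the shifted runs given below leave out the same genes.

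**Figure D3:**
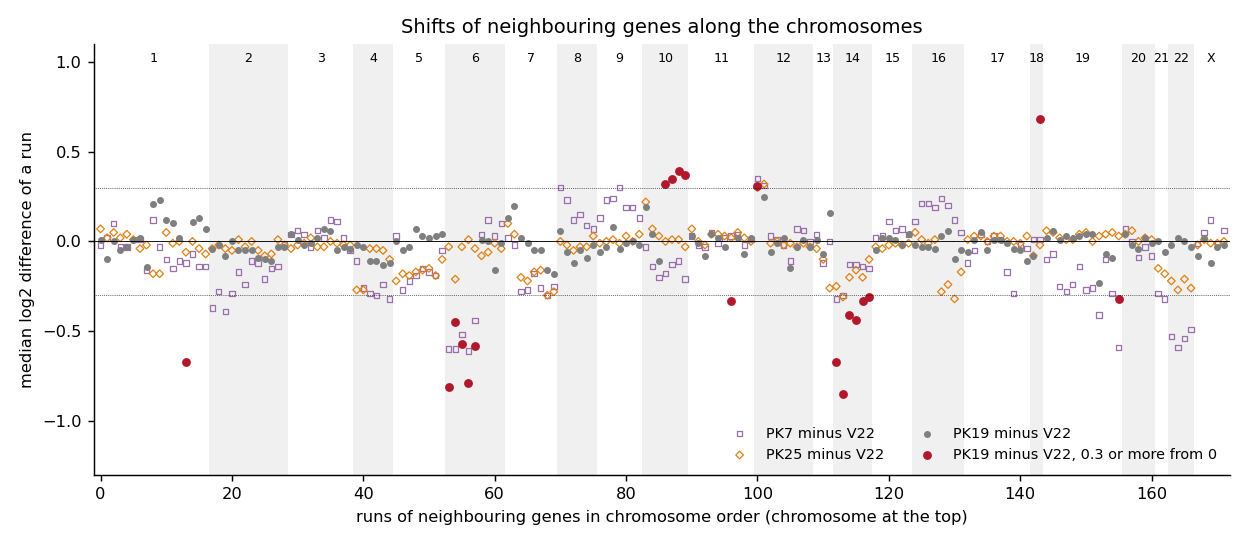
Median log2 difference (vertical axis) of 172 runs of about 50 neighbouring genes in chromosome order (horizontal axis) for PK19 minus V22, with PK7 and PK25 minus V22 as open symbols, which share the V22 arrays. The 20 red points are the PK19 runs 0.3 or more from 0, with chromosomes 6 and 14 below and chromosomes 10 and 18 above the line.

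Gene lists for 43 pathways, complexes and cell types were counted member by member, beside 7.03% of all genes that passed higher and 8.03% that passed lower, and beside the median of 0.002 over all genes. The lists with the highest medians were targets of the hypoxia-inducible factors (0.77), glycolysis and lactate transport (0.49) and NF-kB targets with cytokines (0.41). The lowest were smooth muscle and contractile genes (-0.77), replication-dependent histones (-0.39) and DNA replication (-0.26).

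**Figure D4:**
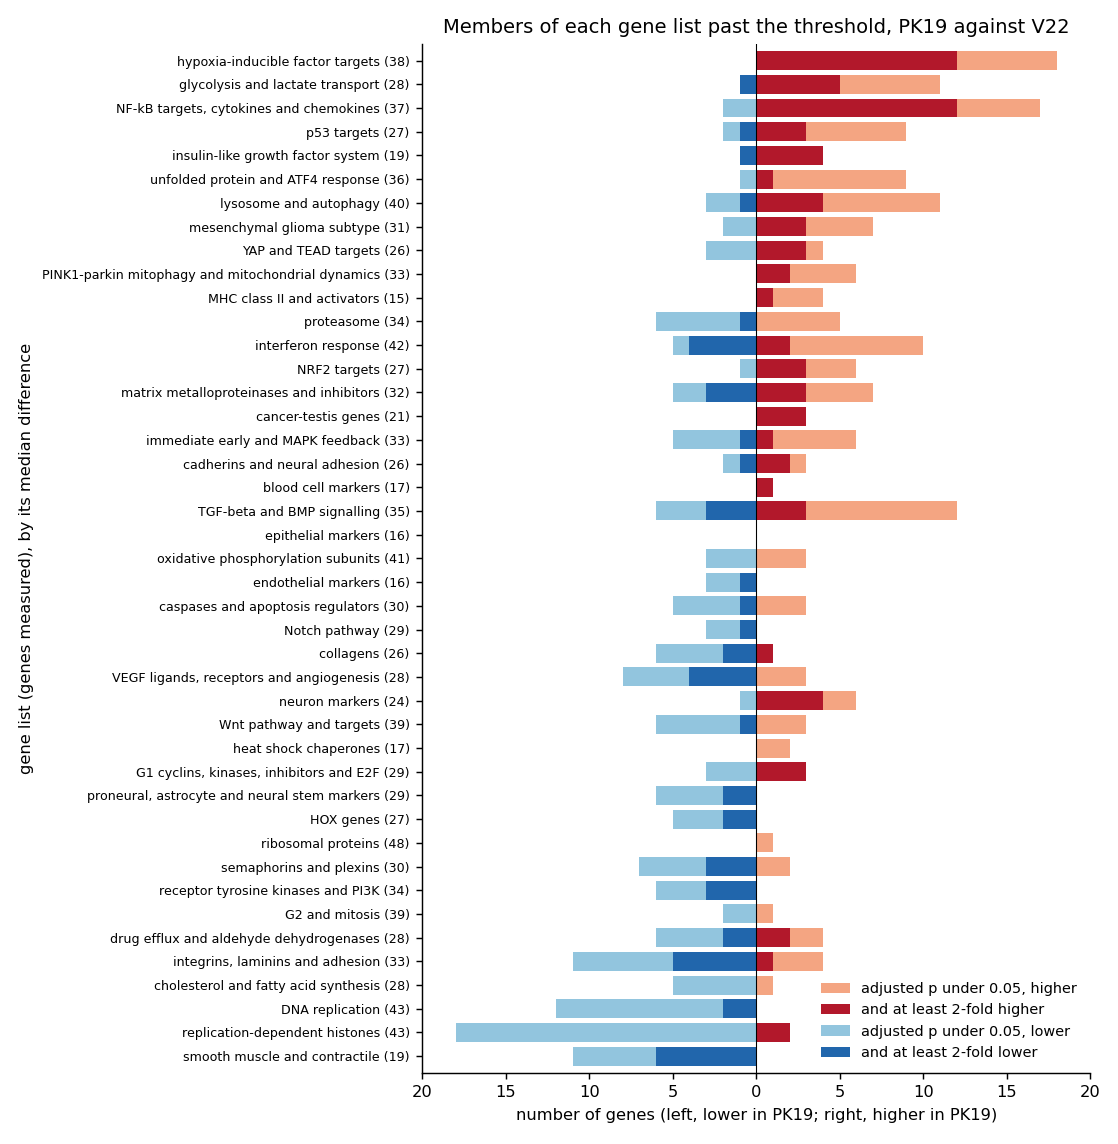
Number of genes (horizontal axis) of each list (vertical axis, with the genes measured in brackets) that passed adjusted p under 0.05 in PK19 against V22, pale where smaller than 2-fold and dark from 2-fold on, lower to the left and higher to the right. Lists are ordered by median difference, with the hypoxia targets at the top (18 higher, 0 lower) and the contractile genes at the bottom (0 higher, 11 lower).

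All 38 measured targets of the hypoxia-inducible factors, the transcription factors that raise glycolysis and oxygen delivery when oxygen is short, had a difference above 0, against 9277 of 18374 genes. Of these, 18 passed higher and 0 lower, and 12 were called higher. NDRG1, a stress-responsive cytosolic protein, was at 10.75, 11.93 and 10.65 in PK19 and 8.79, 9.03 and 8.72 in V22 (difference 2.26, 4.8-fold, SE 0.39, adjusted p = 0.0014). HK2, the hexokinase that binds mitochondria, was at 11.44, 11.75 and 11.38 against 9.96, 9.97 and 9.96 (difference 1.56, SE 0.19, adjusted p = 0.00012). RORA differed by 1.71, BNIP3, a mitophagy receptor, by 1.58, STC2 by 1.48, P4HA1, a subunit of collagen prolyl hydroxylase, by 1.42 and PLOD2, a lysyl hydroxylase, by 1.31. VEGFA (0.26, adjusted p = 0.58), SLC2A1 (0.67, adjusted p = 0.21) and LDHA (0.34, adjusted p = 0.05) were not called.

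PK19 set 2 stood apart from sets 1 and 3 for this list and for others. It was the highest PK19 array for 37 of the 38 targets (97.4%) and 25 of 28 glycolysis genes (89.3%), against 34.2% of all genes. It was the lowest for 43 of 48 ribosomal proteins (89.6%) and 36 of 41 oxidative phosphorylation subunits (87.8%), against 40.4% of all genes. The same held for 35 of 43 histones (81.4%), 26 of 34 proteasome genes (76.5%) and 21 of 27 NRF2 targets (77.8%). The mean of the hypoxia list was 9.15, 9.93 and 9.13 in sets 1 to 3. The V22 arrays of sets 4 to 6 were at 8.57, 8.66 and 8.56, below every PK19 array. Set 2 of PK7 was also its highest, at 9.79 beside 9.11 and 9.07, and PK25 was at 8.65, 8.72 and 8.52. In the first series V22 ranged from 8.71 to 9.28, V17 from 8.74 to 9.09 and V8 from 8.95 to 9.24, so that sets 1 and 3 of PK19 lay within the range of the 12 vector arrays. Only 6 of the 38 targets had all 3 PK19 arrays outside that range. Without PK19 set 2 the median was 0.46 and 7 targets were called. With V22 of the first series as the control the median was 0.36 and 4 were called, BNIP3 then standing at 0.79 (adjusted p = 0.109) and NDRG1 at 1.67 (adjusted p = 0.00462). DDIT4, an inhibitor of mTOR signalling, differed by 1.55 (adjusted p = 0.028), by 0.97 without PK19 set 2 (adjusted p = 0.0722) and by 0.29 against V22 of the first series (adjusted p = 0.728). It did not pass without V22 set 4 (adjusted p = 0.0879) or set 6 (adjusted p = 0.113) either. The part of the culture or processing of set 2 in these values was not tested.

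The promoters of HK2 and BNIP3 are printed as targets called higher that hold a match to the letters below. A match was a condition of the choice, and RORA, with a larger difference, held 0. Capitals mark the core letters of hypoxia response elements, ACGTG and GCGTG, and their reverse complements CACGT and CACGC, which can overlap each other. HK2 (chr2:74833877-74834176, plus strand) held 3 matches and BNIP3 (chr10:131981874-131982173, minus strand) held 6.
HK2: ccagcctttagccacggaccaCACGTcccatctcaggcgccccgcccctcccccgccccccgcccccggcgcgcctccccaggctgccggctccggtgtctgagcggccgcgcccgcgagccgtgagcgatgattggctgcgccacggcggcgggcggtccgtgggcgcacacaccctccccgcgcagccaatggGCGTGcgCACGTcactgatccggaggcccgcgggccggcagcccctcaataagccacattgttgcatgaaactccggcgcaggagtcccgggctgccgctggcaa
BNIP3: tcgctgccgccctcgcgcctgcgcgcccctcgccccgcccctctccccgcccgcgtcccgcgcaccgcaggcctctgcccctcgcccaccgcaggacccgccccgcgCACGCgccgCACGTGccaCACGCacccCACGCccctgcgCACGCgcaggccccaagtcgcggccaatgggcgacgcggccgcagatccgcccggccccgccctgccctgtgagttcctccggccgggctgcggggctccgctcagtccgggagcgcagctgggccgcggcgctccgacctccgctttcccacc

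At least 1 match was present in 48.4% of the 27305 promoters of the table and in 56.7% of the 14208 matched to measured genes. Of the 32 hypoxia targets with a promoter in the table, 27 held one (84.4%), and of the 11 matched targets that were called 8 did. Among called genes of all kinds the share was 54.6% for those higher and 60.2% for those lower. A match of 5 letters is a description and not a binding site.

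Glycolysis and lactate transport gave 11 of 28 members higher and 1 lower, with 25 differences above 0. HK2 and ENO2, the neuronal enolase, led the rises, ENO2 at 10.88, 11.71 and 10.78 against 9.38, 9.55 and 9.36 (difference 1.69, SE 0.24, adjusted p = 0.00042). GPI, which turns glucose 6-phosphate into fructose 6-phosphate, differed by 1.18 (SE 0.13) and TPI1, the triose phosphate isomerase, by 0.84 (adjusted p = 0.00037). PYGL, the liver form of glycogen phosphorylase on chromosome 14, was the 1 member lower, at 7.58, 8.13 and 7.66 against 9.44, 9.5 and 9.52 (difference -1.69, SE 0.14, adjusted p = 3.8e-06). PKM (0.07), ENO1 (0.09) and ALDOA (0.17) did not pass. The list mean was 10.28, 10.83 and 10.28 in PK19 and 9.99, 9.96 and 9.97 in V22. V22 of the first series ranged from 10.07 to 10.35, and against it 3 members were called in place of 6, with GPI at 1.00.

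Targets of NF-kB, the factor that switches on cytokines and adhesion molecules in inflammation, gave 17 of 37 members higher and 2 lower, and 12 were called higher. C3, the central complement component, was at 8.64, 9.64 and 8.51 in PK19 and 5.42, 5.03 and 5.04 in V22 (difference 3.76, 13.6-fold, SE 0.26, adjusted p = 9.1e-07). IL1B was at 10.61, 11.73 and 10.74 against 7.3, 7.67 and 7.22 (difference 3.63, SE 0.37, adjusted p = 2.8e-05). CXCL8, a neutrophil chemokine, was at 8.6, 9.72 and 8.7 against 5.7, 5.5 and 5.78 (difference 3.34, SE 0.23, adjusted p = 7.7e-07). The interleukin IL6 was at 8.09, 9.56 and 8.11 against 5.52, 5.18 and 5.7 (difference 3.12, SE 0.35, adjusted p = 6.2e-05). For each of these 4 genes set 2 was the highest PK19 array and all 3 PK19 arrays lay above V22. LIF, a cytokine of the IL6 family, differed by 2.63, the prostaglandin synthase PTGS2 by 2.37, the adhesion molecule ICAM1 by 1.96 and IL1A by 1.60. NFKBIA, the inhibitor of NF-kB, differed by -0.33 (adjusted p = 0.04) and IL11 by -0.46 (adjusted p = 0.011), and NFKB1 (0.08) and CXCL10 (-0.02) did not pass. Without PK19 set 2, 10 members were called and the differences were 3.41 for C3 and 2.63 for IL6.

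V8, a vector clone, was high for several of the same genes. It stood at 8.04 for C3, 11.48 for IL1B and 8.39 for CXCL8, and its arrays overlapped those of PK19 for these 3. For IL6 (6.58) and LIF (6.95) it was below PK19. The list mean was 6.77, 7.09 and 6.74 in PK19, 6.03, 5.93 and 6.01 in V22, and 6.46, 6.94 and 6.49 in V8. PK7 was close to PK19, at 6.8, 6.85 and 6.79, and PK25 lower, at 6.18, 6.26 and 6.24. The median of PK19 minus PK7 was -0.02 for this list and 0.03 for the hypoxia targets, against 0.15 and 0.74 for PK19 minus PK25.

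**Figure D5:**
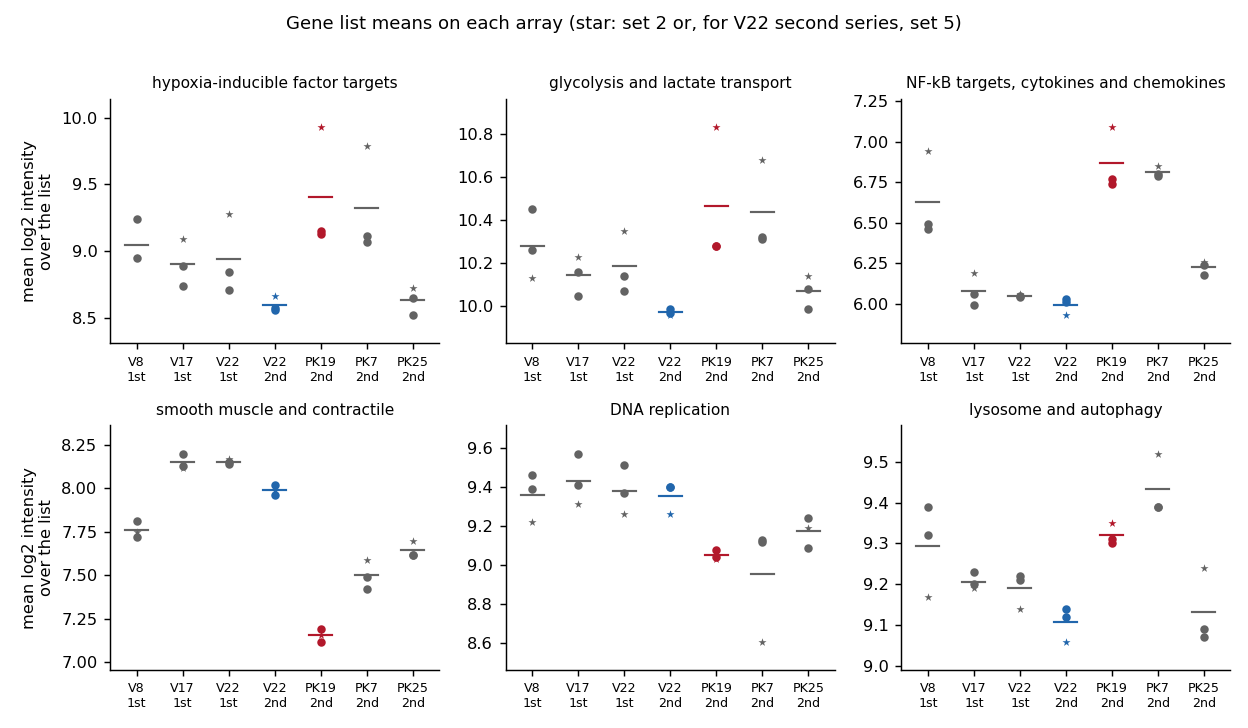
Mean log2 intensity over 6 gene lists (vertical axes) on each of the 21 arrays, by clone and series (horizontal axis), with a bar at the mean of 3 arrays, red for PK19, blue for V22 of the second series and a star for set 2 (set 5 for V22 of the second series). PK19 set 2 is the highest array for the hypoxia, glycolysis and NF-kB lists, and the PK19 arrays are the lowest of all for the contractile list, at 7.12 to 7.19.

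Genes of mitochondria and lysosomes, the organelles of the parkin pathway, differed by list. Of 41 subunits of oxidative phosphorylation 3 passed higher and 3 lower, none by 2-fold, with a median of 0.01. The largest were SDHC, a subunit of succinate dehydrogenase on chromosome 1, at 9.22, 9.2 and 9.17 against 9.99, 10.09 and 10.05 (difference -0.84, adjusted p = 5.4e-05), and ATP5F1A, the alpha subunit of ATP synthase on chromosome 18, at 11.58, 11.42 and 11.54 against 10.81, 10.79 and 10.86 (difference 0.70, adjusted p = 0.00013). Outside the shifted chromosome runs, 0 of 36 subunits passed higher and 1 lower by limma. In the list of PINK1-parkin mitophagy and mitochondrial dynamics 6 of 33 members passed higher and 0 lower, with a median of 0.13. The 2 members called were BNIP3 and OPTN, an autophagy receptor, at 9.24, 9.56 and 9.27 against 8.33, 8.0 and 8.41 (difference 1.11, adjusted p = 0.00084, or 0.99 without V22 set 5).

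Lysosome and autophagy genes gave 11 of 40 members higher and 3 lower, with a median of 0.14, and 5 (12.5%) were called, 4 of them higher, against 3.46% of all genes. CTSS, cathepsin S, was at 8.5, 8.86 and 8.57 against 6.26, 6.32 and 6.4 (difference 2.31, SE 0.19, adjusted p = 3.5e-06), and PK7 was at 8.7. CTSK, cathepsin K, was lower, at 8.49, 9.03 and 8.53 against 9.98, 10.03 and 10.07 (difference -1.35, SE 0.15, adjusted p = 6.9e-05). GABARAPL1, an ATG8 protein of the autophagosome, differed by 1.14 (adjusted p = 0.0004), or by 0.78 against V22 of the first series and 0.96 against all 6 V22 arrays. WIPI1, an early autophagy protein, differed by 1.08 and CTSD, cathepsin D, by 1.00. Without V22 set 5, WIPI1 stood at 0.98 and CTSD at 0.89, and 3 members were called in place of 5. Without PK19 set 2, CTSD stood at 0.95. With V22 of the first series as the control 2 members were called higher and 2 lower.

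DNA replication genes were lower as a group, with 36 of 43 differences below 0, 12 passing lower and 0 higher. MCM6, a subunit of the replicative helicase, was at 9.98, 10.05 and 10.13 in PK19 and 11.19, 11.14 and 11.19 in V22 (difference -1.12, SE 0.17, adjusted p = 0.00062). GMNN, the licensing inhibitor geminin on chromosome 6, was at 8.2, 8.17 and 8.39 against 9.55, 9.36 and 9.46 (difference -1.21, SE 0.19, adjusted p = 0.0009). MCM3 (-0.99), POLE2 (-0.93), POLD1 (-0.71) and CDC6 (-0.61) passed without reaching 2-fold. The list mean was 9.04, 9.03 and 9.08 in PK19 and 9.22 to 9.57 over the 12 vector arrays. It was 9.12, 8.61 and 9.13 in PK7 and 9.24, 9.19 and 9.09 in PK25. The median of PK19 minus PK7 was 0.13 and that of PK19 minus PK25 was -0.08. Outside the shifted runs 9 of 39 members passed lower and the median was -0.26. Mitotic genes showed little of this, with 1 of 39 higher and 2 lower and a median of -0.06. Among 29 G1 cyclins, kinases, inhibitors and E2F genes, E2F7, CDK6 (1.12) and CCND2 (1.09) were called higher and none lower. CDK6 stood at 0.90 against V22 of the first series.

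Replication-dependent histones gave 18 of 43 members lower and 2 higher, and each of the 43 lies between the ends of a shifted chromosome run. Histones with a mean above 7 count in the median of their own run, so the shift of that run is not independent of this list. The 2 members called were higher, H2BC14 (1.16) and H1-1 (1.05). Against V22 of the first series they stood at 0.71 and 0.40, and there 0 histones were called higher and 7 lower by limma, with 30 of 43 passing lower and a median of -0.65. With all 6 V22 arrays as the control none was called, 2 passed higher and 31 lower, and the median was -0.53. H1-1 stood at 0.98 without V22 set 6. Targets of p53, the tumour suppressor that halts the cycle after DNA damage, gave 9 of 27 higher and 2 lower, with a median of 0.30. EDA2R, a receptor of the TNF family, was at 7.61, 7.46 and 7.53 against 5.79, 5.65 and 5.85 (difference 1.77, SE 0.18, adjusted p = 2.6e-05), and GDF15, a stress cytokine, at 8.05, 7.95 and 8.14 against 6.73, 6.65 and 6.46 (difference 1.44, adjusted p = 6.7e-06). PMAIP1, the pro-apoptotic NOXA on chromosome 18, differed by -1.19 (adjusted p = 0.0021). CDKN1A (0.10, adjusted p = 0.77) and MDM2 (0.31, adjusted p = 0.15) did not pass.

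Contractile genes of the smooth muscle type, which U-87MG cells also express, were lower in PK19. Of 19 members 11 passed lower and 0 higher, 6 of them by 2-fold. ACTA2, smooth muscle actin, was at 8.18, 8.31 and 8.17 in PK19 and 11.1, 11.1 and 11.0 in V22 (difference -2.85, 7.21-fold lower, SE 0.13, adjusted p = 1.8e-08). TAGLN, the actin-binding transgelin, was at 5.48, 5.66 and 5.73 against 8.22, 8.45 and 8.01 (difference -2.60, SE 0.15, adjusted p = 2.4e-07). ACTG2 differed by -2.57, PDLIM5 by -1.46, CALD1, caldesmon, by -1.21 and MYLK, myosin light chain kinase, by -1.07. SRF, the transcription factor that drives such genes, differed by -0.86 (adjusted p = 3.9e-05) and VCL, vinculin, by -0.77. MYH11 (0.18), MYOCD (0.08) and MYL9 (0.22) did not pass. The list mean was 7.19, 7.16 and 7.12 in PK19 and 7.72 to 8.20 over the vector arrays. PK7, at 7.42 to 7.59, and PK25, at 7.62 to 7.70, lay between. The median of PK19 minus PK7 was -0.31 and that of PK19 minus PK25 was -0.49, and ACTA2 differed by -1.17 (adjusted p = 5.6e-05) and -1.41 (adjusted p = 1.3e-05) in these comparisons. Outside the shifted runs 8 of 16 members passed lower, with a median of -0.50. Of the 3 members left out, VCL begins a chromosome 10 run that was raised, at a median of 0.32.

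Matrix and adhesion genes went both ways. Collagen genes gave 1 of 26 higher and 6 lower. COL1A2, a chain of type I collagen, was at 9.47, 10.04 and 9.44 against 11.98, 11.92 and 11.93 (difference -2.29, SE 0.21, adjusted p = 9.3e-06), and COL1A1, its partner chain, differed by -1.37 (adjusted p = 0.0003). COL12A1 was higher by 1.54, as was its level in PK7 (8.11). Among 32 metalloproteinases and inhibitors 7 passed higher and 5 lower. ADAMTS5, an aggrecan-cutting protease, was at 10.13, 10.22 and 10.19 against 7.55, 7.48 and 7.77 (difference 2.58, SE 0.22, adjusted p = 5.7e-06), and SERPINE2, a protease inhibitor, differed by -1.24. Integrins, laminins and adhesion genes gave 4 of 33 higher and 11 lower. ITGA6 was at 4.34, 3.84 and 4.32 against 7.3, 6.66 and 7.22 (difference -2.89, SE 0.23, adjusted p = 2.9e-06), ITGA10 differed by -1.87 and LAMC1, a laminin chain, by -1.14. ITGB5 was higher by 1.57 (SE 0.12, adjusted p = 1.6e-06).

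Receptors of growth and guidance signals were more often lower than higher by count. In the VEGF and angiogenesis list 3 of 28 members passed higher and 8 lower. KDR, a receptor of VEGF, was at 6.31, 6.13 and 6.21 against 9.09, 8.63 and 8.89 (difference -2.65, SE 0.21, adjusted p = 2.9e-06). It was low in PK7 (6.61) and PK25 (7.1) too and stood at 7.99 in V8. ANGPT2, an angiopoietin, differed by -2.31 (adjusted p = 0.00037). Receptor tyrosine kinases gave 0 of 34 higher and 6 lower, with ROR1 at -1.81 and PDGFRA at -1.54. Semaphorins and plexins, axon guidance molecules and their receptors, gave 2 of 30 higher and 7 lower. PLXNA4 was at 6.16, 6.03 and 6.3 against 8.51, 8.78 and 8.55 (difference -2.45, SE 0.11, adjusted p = 1.6e-08) and SEMA6D differed by -2.31. PK7 was near PK19 for both, at 6.17 and 4.85, whereas PK25 stood at 7.61 and 7.41.

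Other stress and signalling lists held up to 6 called members each. HMOX1, the haem-degrading target of NRF2, was at 12.36, 12.42 and 12.32 in PK19 and 10.4, 10.53 and 10.34 in V22 (difference 1.94, 3.85-fold, SE 0.12, adjusted p = 2.4e-07). It was above PK7 by 1.78 (adjusted p = 5.6e-07) and above PK25 by 2.10 (adjusted p = 1.4e-07). The NRF2 list gave 6 of 27 higher and 1 lower. PSAT1, an enzyme of serine synthesis and a target of ATF4, was higher by 1.55 (adjusted p = 2.6e-05), in a list with 9 of 36 higher and 1 lower. IGFBP3, which binds insulin-like growth factors, was at 9.42, 11.53 and 9.11 against 7.11, 7.41 and 7.24. Set 2 stood far above the other PK19 arrays, and the difference was 2.77 (SE 0.64, adjusted p = 0.011), or 2.01 without that array (adjusted p = 0.0388). The growth factor list gave 4 of 19 higher and 1 lower. TGF-beta and BMP signalling gave 12 of 35 higher and 6 lower, with SMAD3, a signal transducer, at 1.31 and TGFBR2, a receptor, at -1.08. Wnt genes gave 3 of 39 higher and 6 lower, with the inhibitor DKK1 at -2.03 (adjusted p = 0.0016), and Notch genes 0 of 29 higher and 3 lower, with the ligand JAG1 at -1.45. Interferon response genes gave 10 of 42 higher and 5 lower, among them IFIT1 (1.32) and TRIM22 (1.37) higher and RIGI (-1.36), IFI44L (-1.42) and IFITM3 (-1.22) lower. Against V22 of the first series 7 interferon genes passed higher and 9 lower. YAP and TEAD targets gave 4 of 26 higher and 3 lower, and immediate early and MAPK feedback genes 6 of 33 higher and 5 lower. Caspases and apoptosis regulators gave 3 of 30 higher and 5 lower. Cholesterol and fatty acid synthesis gave 1 of 28 higher and 5 lower, and MHC class II genes and activators 4 of 15 higher and 0 lower. Ribosomal proteins (1 of 48 higher, 0 lower), heat shock chaperones (2 of 17 higher, 0 lower) and proteasome subunits (5 of 34 higher, 6 lower) held 1 gene past 2-fold, PSME2 on chromosome 14 (-1.25). Outside the shifted runs 5 of 27 proteasome genes passed higher and 0 lower. Caspases and apoptosis regulators gave 3 of 26 higher and 2 lower there, and interferon genes 6 of 33 higher and 5 lower. MHC class II genes and activators gave 3 of 6 higher and 0 lower outside these runs.

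Glioma and other cell type markers were counted in the same way. Markers of the mesenchymal glioma subtype gave 7 of 31 higher and 2 lower, led by PDPN, podoplanin, at 8.09, 7.72 and 8.18 against 4.77, 4.83 and 4.98 (difference 3.14, SE 0.21, adjusted p = 7.3e-07). PDPN was also high in V8, at 7.81. Proneural, astrocyte and neural stem markers gave 0 of 29 higher and 6 lower, or 0 of 28 higher and 5 lower outside the shifted runs. SOX4 stood at -1.01 and SOX2 at -1.09. Without V22 set 6 these stood at -0.94 and -0.89, and SOX4 fell just short of 2-fold without PK19 set 3. Neuron markers gave 6 of 24 higher and 1 lower, with MAP2 at 2.04 (adjusted p = 9.9e-07), SYT1 at 1.48 and SNAP25 at 1.33. The median of that list was -0.02, with 10 differences above 0 and 14 below, and 17 members did not pass. Among markers of cells that the culture should not hold, 0 of 16 epithelial markers passed either way by limma, 1 of 17 blood cell markers passed higher, and 0 of 16 endothelial markers passed higher and 3 lower, KDR among them. The list means of blood cell markers were 5.37, 5.32 and 5.17 in PK19 and 5.15, 5.21 and 5.16 in V22. HOX genes gave 0 of 27 higher and 5 lower. Cadherins and neural adhesion genes gave 3 of 26 higher and 2 lower, with MCAM at 1.56 and CHL1 at -1.88. Drug efflux and aldehyde dehydrogenase genes gave 4 of 28 higher and 6 lower, with ALDH2 at 2.36 (adjusted p = 4.5e-08) and the transporter ABCG2 at -1.27 (adjusted p = 0.0013).

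PK19 was also compared with the other parkin clones of the series. PK19 and PK7 differed in 550 called genes (2.99%), 243 higher and 307 lower in PK19, and PK19 and PK25 in 565 (3.07%), 356 higher and 209 lower. Both comparisons leave V22 out. A gene was counted as setting PK19 apart when it was called in the same direction against V22, PK7 and PK25, and 130 genes were higher (0.708%) and 84 lower (0.457%) by that count. By the smallest of the 3 differences the leading genes were E2F7, ZNF845, MAGEC1, PNLIPRP3, MRS2, ZNF680, ZNF737, SAGE1, LDOC1 and DCC. SAGE1, a cancer-testis gene of X that the list does not hold, was at 6.5, 6.22 and 6.61 against 2.89, 3.1 and 3.0 in V22, and at 3.05 in PK7 and 3.18 in PK25. LDOC1, a retrotransposon-derived gene of X, differed from V22 by 3.16, from PK7 by 3.21 and from PK25 by 3.37. DCC, the netrin receptor on chromosome 18, was at 7.82, 8.28 and 7.82 against 5.09, 4.86 and 4.95 in V22 (difference 3.00, SE 0.16, adjusted p = 1.1e-07).

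The 10 leading genes on the low side were ALDH7A1, CD24, SLFN11, GALNT5, HMGN3, LINC01551, SRGN, ITGA6, PRR5L and GABRG3. PRR5L, a component of the mTORC2 kinase complex, was at 5.76, 5.72 and 5.64 against 8.34, 8.54 and 8.29 (difference -2.68, SE 0.12, adjusted p = 2.1e-08), with 8.47 in PK7 and 8.03 in PK25. GABRG3, a subunit of GABA receptors, differed by -2.18 from V22, -2.40 from PK7 and -2.15 from PK25. Against PK7 alone the lowest genes included TNFRSF9, a costimulatory receptor, at 5.68, 5.66 and 5.74 in PK19 and 9.39 in PK7 (difference -3.70, adjusted p = 1.3e-08). That gene did not pass against V22 (-0.32, adjusted p = 0.28). TUSC3, a subunit of the oligosaccharyl transferase, stood at 6.82, 5.73 and 6.67 in PK19, 5.01, 5.08 and 4.86 in V22 and 10.1 in PK7. It was higher than V22 by 1.43 (adjusted p = 0.011) and differed from PK7 by -3.69 (adjusted p = 1.1e-05). The difference from V22 did not pass without PK19 set 1 (1.22, adjusted p = 0.0573) or set 3 (1.30, adjusted p = 0.0524).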

How the data were processed

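The members and gene lists were chosen with earlier results of these data known. Whole-transcript Affymetrix gene arrays of 21 RNA samples were used. The authors deposited linear RMA intensity values, RMA being named in the submitters' processing notes, and log2 of the deposited intensity was taken. RMA pulls low signals together, so folds of dim genes are likely understated. Of 26947 probe sets 19305 name 1 gene, 1750 several and 5892 none or are not listed in the platform table. The 12 second-series arrays were fitted as a one-way layout with limma 3.58.1 in R 4.3.3 (8 residual degrees of freedom), with Benjamini-Hochberg adjustment over all probe sets, and tested on simulated data. Named genes were the 15 largest rises and 15 largest falls past the threshold with a mean of at least 7 in PK19 or V22. No overlap of the PK19 and V22 arrays was a further condition for these. List members called and the genes leading against PK7, PK25 or all 3 clones were also named. Other members of lists and families were named after their values were seen. The second series was read from scanner file prefixes. A replicate block was also fitted, from an inferred grouping of the second-series arrays into runs of 4 consecutive scanner file numbers, which puts V22 sets 4, 5 and 6 with parkin sets 1, 2 and 3. Deviations of the PK19 and V22 arrays of one run correlated at 0.28, 0.38 and 0.22, but PK19 set 1 with V22 set 6 (0.27) and PK19 set 3 with V22 set 4 (0.21) did about as much, so only the set 2 run stood apart. By set number the correlations were 0.32, 0.51 and 0.47 between PK19 and PK7, and 0.08, 0.50 and 0.03 between PK19 and PK25. Promoter sequences came from RefSeq, build GRCh38.p14.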

Additional observations from a re-analysis of the deposited data

Results flagged for a closer look

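Some genes lay on opposite sides of V22 in PK19 and another parkin clone, with the difference between both parkin clones past the threshold. GALNT5, an enzyme of mucin-type glycosylation, averaged 4.67 in PK19, 7.84 in V22 and 10.5 in PK7, and PK19 minus PK7 was -5.82 (limma adjusted p = 8.8e-11). HAS2, the hyaluronan synthase, ran the other way, at 9.2, 7.75 and 5.54, a difference of 3.66 (adjusted p = 1.1e-05). TNIK, a kinase of the Wnt pathway, averaged 5.01, 7.1 and 8.14 (-3.13), GASK1B 5.16, 6.39 and 7.72 (-2.56), BAMBI, a decoy receptor of TGF-beta signalling, 5.7, 6.94 and 7.98 (-2.28) and SCG5 5.65, 6.69 and 7.89 (-2.24). SLAIN1 averaged 6.53 in PK19, 5.5 in V22 and 4.43 in PK7, a difference of 2.10. LRCH2 averaged 7.27 in PK19, 5.76 in V22, 4.35 in PK7 and 4.22 in PK25, and its differences were 2.92 from PK7 and 3.05 from PK25 (adjusted p = 5.4e-07). CYFIP2 averaged 8.33 in PK19, 7.13 in V22 and 5.96 in PK25, a difference of 2.37 (adjusted p = 6.3e-06).

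Probe sets without a single gene symbol were outside the counts over genes. The largest difference among those with several symbols was 6.23, with 9.25, 9.09 and 9.28 on the PK19 arrays and 2.95, 2.88 and 3.1 on the V22 arrays (adjusted p = 1.3e-12). It averaged 2.96 in PK7 and PK25 and 2.95 in V8. It lists 9 symbols, as do 5 others that differed by 5.83 to 6.09. The largest difference among those with no symbol was 4.62, with 9.31, 9.77 and 9.22 against 4.73, 4.85 and 4.87 (adjusted p = 2.9e-09), and it averaged 9.22 in PK7, 9.58 in PK25 and 4.73 in V8.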

How the results depend on the processing

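More genes were called higher (337) than lower (299) in the main setting. That order reversed without the dimmest 30% of probe sets (257 higher, 298 lower) and with V22 of the first series as the control (349 higher, 354 lower). It also reversed at the 1.5-fold size and with the treat test, given below. No difference of a named gene from V22 changed sign. List medians near 0 did so in 24 of the 859 values tried, in 14 lists with a main median of at most 0.11 from 0, and the 2 histones called higher gave way to 7 called lower with V22 of the first series. PK19 against V22 gave 636 called genes, 1660 at a size of at least 1.5-fold (779 higher, 881 lower) and 1179 with limma's treat test against 1.2-fold (541 higher, 638 lower). Leaving out 1 array at a time gave 614 to 638 (315 to 343 higher, 285 to 307 lower), 545 to 586 against PK7, 554 to 596 against PK25 and 201 to 218 apart from all 3 clones. With the inferred runs of 4 file numbers as a replicate block 643 genes were called, 342 higher and 301 lower, and no named call was lost. With set number as a replicate block over the parkin arrays 556 were called against PK7 and 566 against PK25. Other settings gave 477 (log2 of intensity plus 16) to 703 (V22 of the first series as the control). Centring each array on its median gave 325 higher and 313 lower. Of 133 named genes called, 105 kept their call under every setting, 14 lost it with V22 of the first series and 12 with intensity plus 16. List medians moved by more than the spread between arrays in 75 of the values tried and stayed within it in 784. The latter include the hypoxia median against V22 of the first series, 0.36 in place of 0.77. Genes near background have compressed differences, and 3 arrays of 1 clone limit every comparison.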
